A study of Mus musculus with 2 samples.

Results

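The genes described here are 8 members of the mouse MHC class II presentation pathway: H2-Aa, H2-Ab1, H2-Eb1, H2-DMa, H2-DMb1, H2-DMb2, Cd74 and Ciita. They were chosen by symbol, and all 8 were found among the 32285 genes listed for both libraries. The data came from aging C57BL/6 mice that were injected with the drug Maraviroc (MVC) or with the DMSO vehicle in the study's high dose short term regime. Mononuclear cells of limb muscle were sorted for viability after red blood cell lysis and profiled by 10x single-cell RNA-seq, and the number of mice behind a library is not given in the sources used here. There was 1 library for each treatment, DMSO and MVC, with no genetic modification in either. The comparison asks how these genes differed between the vehicle and the drug library in each cell type of the muscle niche.

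MHC class II molecules are pairs of an α and a β chain that display peptides from endosomes to CD4 T cells. H2-Aa and H2-Ab1 encode the chains of the A molecule, and H2-Eb1 encodes the β chain of the E molecule, whose α chain is not transcribed in C57BL/6 mice. Cd74, the invariant chain, fills the groove of a new class II dimer and guides it to endosomes, where the H2-DM heterodimer (H2-DMa with H2-DMb1 or H2-DMb2) helps exchange the leftover CLIP fragment for a peptide. Ciita is the transactivator that class II promoters depend on: it does not bind DNA itself and docks on RFX, CREB and NF-Y factors assembled over conserved X and Y boxes. Dendritic cells, B cells and many macrophages express class II constitutively, and endothelial and stromal cells can be induced by interferon-γ. H2-Aa, H2-Ab1 and H2-Eb1 are referred to as the classical chains.

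In the GENCODE annotation of GRCm38, 6 of the 8 genes lie within 197.1 kb of chromosome 17, from position 34119541 to 34316674. In order along the plus strand these are H2-DMa (34119541 to 34139101, +), H2-DMb2 (34143307 to 34151555, +), H2-DMb1 (34153072 to 34160230, +), H2-Ab1 (34257689 to 34269419, +), H2-Aa (34282744 to 34287823, −) and H2-Eb1 (34305867 to 34316674, +). Ciita lies on chromosome 16 (10480059 to 10528418, +) and Cd74 elsewhere. The H2-DMa locus overlaps CR974462.3 on the same strand, so its count may be split or shared there. Of the 31-base words in the last 500 bases of H2-DMb1 transcripts, where a 3′ library draws most reads, 25.3% also occur in H2-DMb2 transcripts, so the division of reads between the 2 β chains is uncertain. Of those of H2-DMb2, 25.4% also occur in transcripts of other genes, so its count is uncertain as well. Zw10, 1700055D18Rik and Ccdc127 come first among these genes by the number of shared words.

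The stretch around the X and Y boxes is shown for the 4 members with a matched promoter holding the Y box core. These boxes are where the factors that CIITA docks on assemble. Each line gives 50 bases, 5′ to 3′ in the direction of transcription, from RefSeq promoters on GRCm38.p6, with the Y core TGATTGG and the X core GNAAC in capitals. The positions are chr17:34287862-34287911 (−) for H2-Aa, chr17:34305768-34305817 (+) for H2-Eb1, chr17:34153090-34153139 (+) for H2-DMb1 and chr17:34145119-34145168 (+) for H2-DMb2.
H2-Aa: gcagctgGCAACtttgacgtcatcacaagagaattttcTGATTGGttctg
H2-Eb1: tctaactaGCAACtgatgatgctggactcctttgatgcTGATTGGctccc
H2-DMb1: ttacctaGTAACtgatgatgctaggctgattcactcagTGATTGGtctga
H2-DMb2: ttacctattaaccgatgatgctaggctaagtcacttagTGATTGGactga
The Y core began 50, 61, 63 and 92 bases upstream of the RefSeq transcription start of H2-Aa, H2-Eb1, H2-DMb1 and H2-DMb2, in that order. In the first 3 of these the X core began 30 or 31 bases further upstream. The pair at a spacing of 25 to 35 bases was also found in H2-Oa, H2-Ob and H2-Eb2, class II loci that are not among the members. H2-DMb1 and H2-DMb2 had the same base at 44 of the 50 positions, and the letters GNAAC were not found at that spacing in H2-DMb2. GENCODE starts H2-DMb1 at 34153072 and H2-DMb2 at 34143307, so by that annotation the stretches of both lie inside the gene. Searched on both strands of 32851 RefSeq promoter windows reaching 250 bases before and 50 bases after the start, TGATTGG was present in 7.82%, GNAAC in 84.9%, and the pair at a spacing of 25 to 35 bases in 0.323%. The motifs do not overlap each other. Neither of the 2 windows for H2-DMa, which also lie inside its GENCODE span, held TGATTGG, and H2-Ab1, Cd74 and Ciita were not matched. These are matches of letters, not measured binding sites.

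The DMSO library held 39150511 unique molecular identifiers (UMIs) and the MVC library 36063575, and 5437 of 5812 and 5454 of 6047 barcodes passed the study's filter, which removes those under 500 genes or over 10% mitochondrial UMIs. The libraries shared 8 cell barcodes. Kept cells had a median of 5802 UMIs with DMSO and 5195 with MVC. Cell classes were rebuilt by clustering with class II genes left out, so none was defined by these genes, and a name was given only where at least 3 of its fixed markers were raised. The B cell class was led by Igkc, Bank1, Cd79a and Pax5, the macrophage class by Mrc1, C1qa and Pf4, the endothelial class by Cldn5 and Kdr, the venous endothelial class by Selp, Sele and Ackr1, the lymphatic endothelial class by Ccl21a, Mmrn1, Lyve1 and Prox1, and fibro-adipogenic progenitors (FAPs) by Smoc2, Cxcl14 and Pi16. Levels are in CPM, the UMIs of a gene divided by all UMIs of the same class and library and multiplied by 1000000. They are not scaled for gene length, so levels are compared between cells, and only loosely between genes. Since each treatment had a single library, there was no test: ratios are MVC over DMSO with a 95% interval that covers counting error only, and neither differences between mice nor between preparations enter it.

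The classical chains were a B cell and macrophage signal. Summed over H2-Aa, H2-Ab1 and H2-Eb1, there were 18777 UMIs in kept DMSO cells and 18574 in kept MVC cells, which is 485 and 523 CPM. B cells held 48.1% of them with DMSO and 26.4% with MVC, macrophages held 48.7% and 70.4%, and every other cell together 3.16% and 3.29%. The shift went with cell numbers, as 205 B cells and 152 macrophages were kept from DMSO against 103 and 213 from MVC. Cell numbers from single libraries also depend on dissociation and sorting, whose part was not tested.

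**Figure D1:**
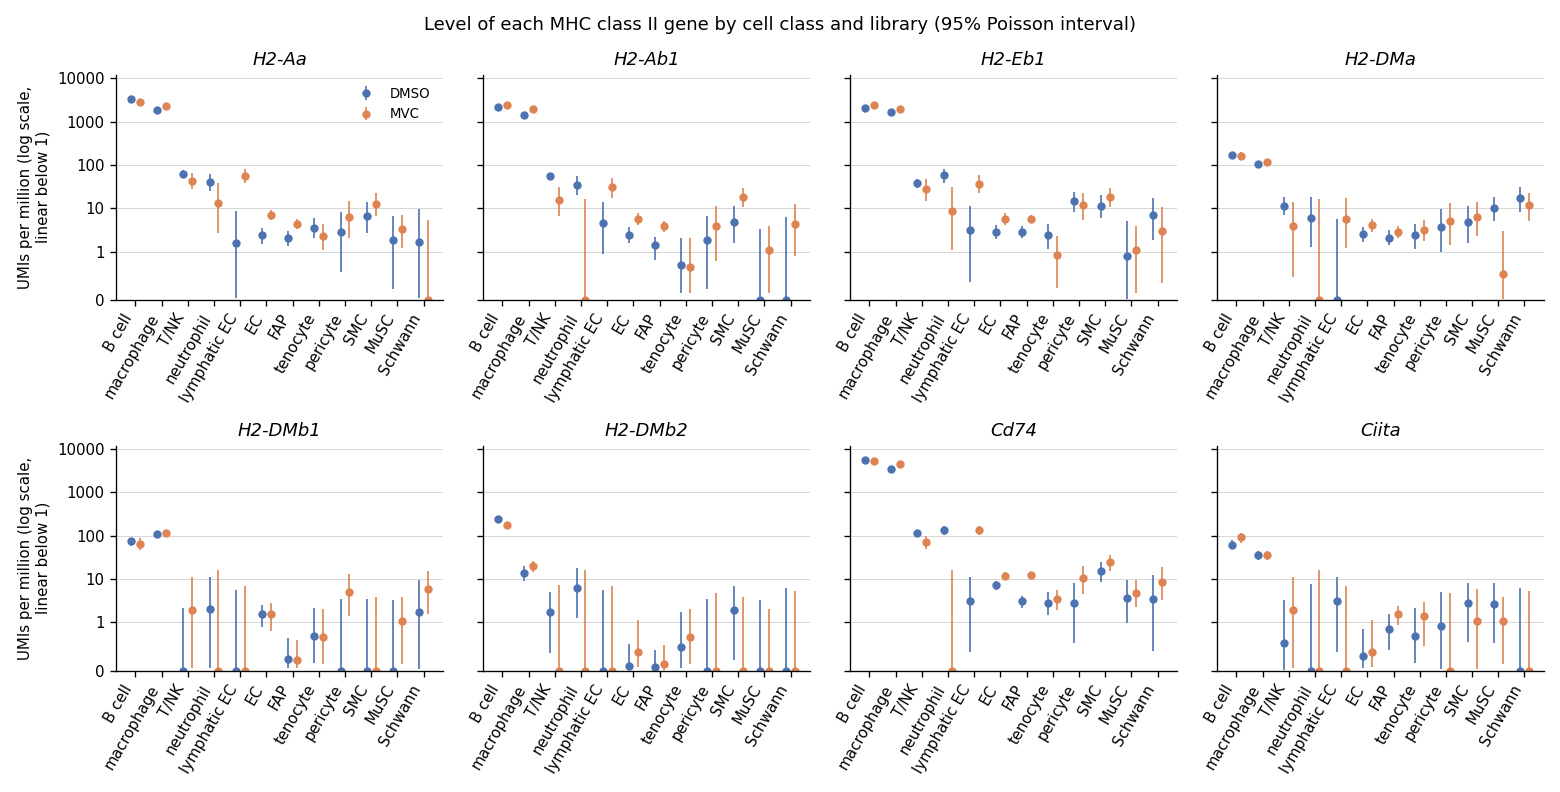
Level of each of the 8 class II genes (CPM of the class and library, log axis) by cell class, with DMSO and MVC side by side and bars for the 95% Poisson interval. B cells and macrophages sit far above other classes for the classical chains and Cd74, and H2-DMb2 stands out in B cells.

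Among whole classes, ordered by the level of the classical chains, B cells came first with 7654 CPM in DMSO and 7607 in MVC, and the intervals of the 2 libraries overlapped. Macrophages followed with 4940 (4839 to 5042) and 6160 (6055 to 6267), below B cells in both libraries. T/NK cells had 154 and 86.8 CPM and neutrophils 133 and 21.9, and these were in a few cells only. Among non-immune classes, smooth muscle cells had 22.8 and 48.7, pericytes 19.4 and 21.9, endothelial cells (ECs) 7.68 and 18.5, lymphatic ECs 9.32 and 123, and FAPs 6.35 and 13.9. Tenocytes were at 6.72 and 3.91 and muscle stem cells (MuSCs) at 2.73 and 5.45, and with DMSO the intervals of ECs, lymphatic ECs, FAPs, tenocytes and MuSCs overlapped each other.

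The share of cells with a classical chain UMI was also far higher in B cells and macrophages than elsewhere. It was 98.5% and 97.1% in B cells and 73.0% and 77.5% in macrophages, at median depths of 5088 and 5192 UMIs for B cells and 11040 and 9420 for macrophages. In tenocytes, which are not class II expressing cells, it was 3.66% (2.14 to 5.79) with DMSO and 3.21% (1.88 to 5.09) with MVC at median depths of 8053 and 7418. FAPs were at 3.93% and 6.18% at 10420 and 9268 UMIs, and ECs at 3.08% and 6.25% at 3957 and 3710 UMIs. With DMSO, FAPs and ECs were thus within the tenocyte interval, at unequal depths. Thinned to 2000 UMIs, the DMSO shares were 0.887% in tenocytes, 0.711% in FAPs and 1.54% in ECs.

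The mix of members differed between the immune and the other cells. In B cells and macrophages Cd74 gave 39.4 to 41.1% of all member UMIs and H2-DMa 1.09 to 1.24%. Over all non-immune cells H2-DMa gave 18.0% (14.95 to 21.3) of 590 member UMIs with DMSO and 9.34% (7.75 to 11.1) of 1188 with MVC. Ciita gave 4.92% and 3.03% there, against 0.327 to 0.686% in B cells and macrophages. Cd74 had the opposite pattern, at 27.3% with DMSO and 37.0% with MVC in non-immune cells. The source of the class II UMIs in non-immune cells was not tested.

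B cells from the MVC library had the same summed level of classical chains as those from DMSO, with a ratio of 0.994 (0.960 to 1.03). The single chains did not move together. H2-Aa had 3403 CPM with DMSO and 2898 with MVC, a ratio of 0.852 (0.806 to 0.900). H2-Ab1 had 2165 and 2352 CPM (ratio 1.09, 1.02 to 1.16), and H2-Eb1 had 2086 and 2357 (1.13, 1.06 to 1.21). Over all B cells pooled, the α chain was thus lower and both β chains were slightly higher with MVC, each by more than the counting error. Cd74 was 5522 and 5261 CPM (0.953, 0.914 to 0.993).

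Among the peptide editors in B cells, H2-DMb2 was lower with MVC, at 177 CPM against 245 (0.724, 0.577 to 0.902). H2-DMa had 162 CPM with MVC against 170 (0.949, 0.742 to 1.21) and H2-DMb1 63.7 against 73.7 (0.864, 0.581 to 1.27), and both intervals included equal levels. Ciita was at 61.8 CPM with DMSO and 91.7 with MVC, a ratio of 1.48 (1.03 to 2.12) from 73 and 59 UMIs. None of the 8 members passed a 1.5-fold difference in B cells, where 12.1% of all 5416 genes with enough UMIs were higher and 8.42% were lower by that much. The median log2 ratio of the members was -0.07, against 0.04 for all genes tested.

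The sub-clusters of B cells did not share a direction, and 1 of them held much of the difference. It was led by Ighg2b and Jchain, which antibody-secreting cells express, and had 8 cells with DMSO and 25 with MVC. Only 2 plasma cell markers were raised, so this sub-cluster was left unnamed, and Slpi, Il5ra and Fcrl5 were also among its leading genes. In it H2-Aa had 548 CPM with DMSO and 4100 with MVC, and the classical chains together were 9.07 times as high (7.72 to 10.7), while Ciita had 0 and 28 UMIs. The DMSO value rested on few cells, as 3 of the 8 held 95.1% of 162 UMIs and 1 of them 62.4%. At the thinned depth 5 of the 8 DMSO cells had no classical UMI, against 0 of 23 MVC cells. The largest sub-cluster, with 93 and 26 cells, went the other way, with classical chains at 8601 CPM with DMSO and 6449 with MVC (0.750, 0.698 to 0.804). The next had 69 and 26 cells and a ratio of 0.989 (0.918 to 1.06), and a sub-cluster led by Hspa1a and Myc, with 29 and 14 cells, had 1.15 (1.04 to 1.27). In the largest sub-cluster both β chains were lower too, H2-Ab1 at 0.837 (0.735 to 0.950) and H2-Eb1 at 0.854 (0.750 to 0.971). H2-Ab1 had a ratio above 1 in each of the other sub-clusters. In the Ighg2b and Jchain led one H2-Ab1 had 51 UMIs with DMSO and 557 with MVC, and H2-Eb1 had 36 and 617.

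Without the Ighg2b and Jchain led sub-cluster the classical ratio in B cells was 0.755. A sub-cluster of 6 and 12 cells carried endothelial markers, 83.3% of its cells were called doublets, and without it the ratio was 1.13. The near-equal level over all B cells therefore rested on which sub-clusters were counted.

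In macrophages the classical chains and Cd74 were higher with MVC. H2-Aa had 1899 CPM with DMSO and 2304 with MVC (1.21, 1.16 to 1.27), H2-Ab1 had 1394 and 1915 (1.37, 1.31 to 1.44), and H2-Eb1 had 1647 and 1941 (1.18, 1.13 to 1.24). Cd74 had 3529 and 4503 CPM, a ratio of 1.28 (1.24 to 1.32), close to the 1.25 (1.21 to 1.28) of the summed classical chains. The editors and the transactivator had intervals that included equal levels: H2-DMa was at 108 CPM with DMSO and 119 with MVC, H2-DMb1 at 108 and 116, H2-DMb2 at 14.0 and 19.8, and Ciita at 35.1 and 35.8.

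None of the 8 members passed a 1.5-fold difference in macrophages, where 10.4% of 7440 genes were higher and 6.16% were lower by that much. The median log2 ratio of the members was 0.26, against 0.05 for all genes tested. The share of macrophages with no classical UMI, after thinning each cell to 2000 UMIs, was 39.0% with DMSO and 29.7% with MVC. The thinned median was 2 UMIs per cell with DMSO and 3 with MVC, and the upper quartile 10 and 15.5.

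**Figure D2:**
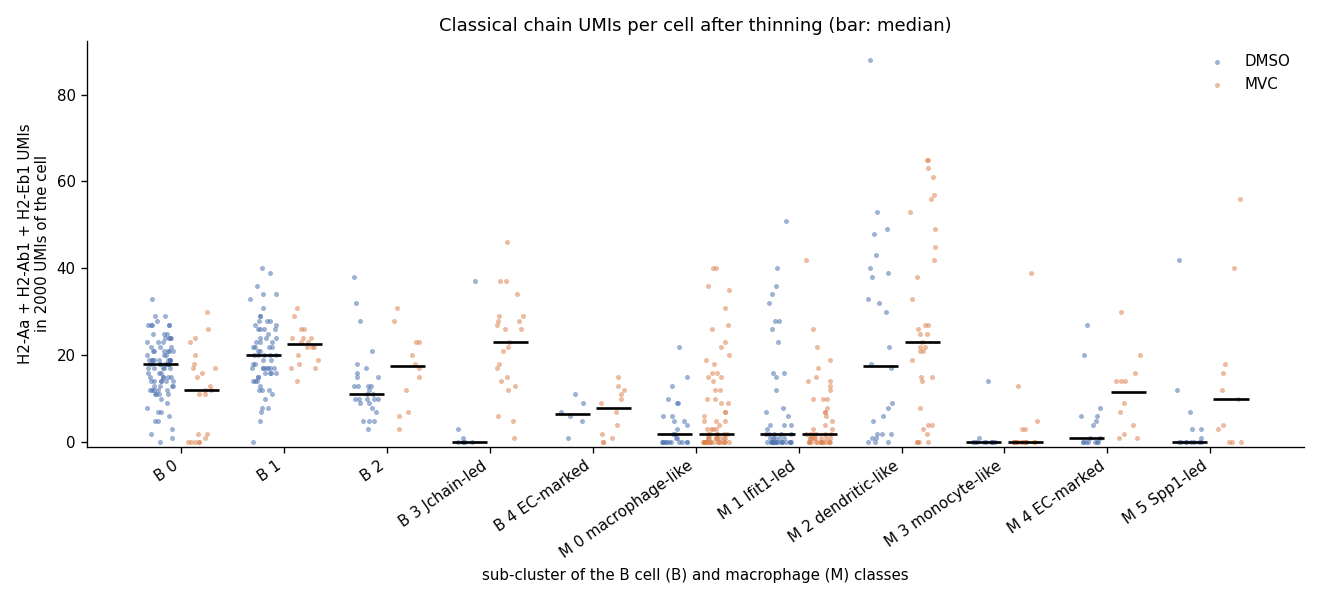
Classical chain UMIs per cell after thinning each cell to 2000 UMIs, by sub-cluster of the macrophage and B cell classes, with DMSO and MVC side by side. Cells of the dendritic cell-like sub-cluster are the highest of the macrophage class, and many cells of the other macrophage sub-clusters are at 0.

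Most classical UMIs of the macrophage class came from a dendritic cell-like sub-cluster. It had 6 dendritic cell markers raised, was led by Ccr7, Ccl17 and Flt3, and made up 34 of 152 cells with DMSO and 37 of 213 with MVC. It held 58.0% of the classical UMIs of the class with DMSO and 51.2% with MVC. The summed classical chains were at 14090 and 13770 CPM here, above the level of B cells, and the ratio was 0.977 (0.943 to 1.01). H2-Aa was at 5336 and 4663 CPM, H2-Ab1 at 4196 and 4793, and H2-Eb1 at 4557 and 4316. The lower α chain beside a higher Ab1 β chain was also seen over all B cells pooled, but not in their largest sub-cluster. Ciita in these cells was 130 CPM with DMSO (49 UMIs) and 59.7 with MVC (29 UMIs), a ratio of 0.458 (0.279 to 0.740), with Cd74 at 8132 and 9193 CPM.

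Outside the dendritic cell-like cells the sub-clusters differed in direction. The macrophage-like sub-cluster, led by Maf and Gpr34 and with 28 and 77 cells, had classical chains at 2349 CPM with DMSO and 3923 with MVC (1.67, 1.52 to 1.84). A sub-cluster led by Oasl1, Rsad2 and Ifit1, genes of the type I interferon response, had 48 and 53 cells and went the other way, with 3557 and 2587 CPM (0.727, 0.676 to 0.782). In the latter H2-Ab1 and H2-Eb1 were lower, at 0.593 (0.508 to 0.690) and 0.613 (0.536 to 0.700), and H2-Aa was at 0.910 (0.817 to 1.01).

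The other macrophage sub-clusters were small. The one led by Gpnmb, Spp1 and Fn1 had 14 and 11 cells, with 2448 and 9519 CPM (3.89, 3.56 to 4.25), and a monocyte-like one had 11 and 22 cells, with 754 and 1526 CPM. In the former 3 cells held 89.3% of the classical UMIs with DMSO and 81.4% with MVC, and in the latter 100% and 92.8%. A sub-cluster with endothelial markers, in which 56.7% of cells were called doublets, had 17 and 13 cells with 2121 and 5202 CPM, and without it the ratio of the class was 1.17. Weighting the MVC sub-clusters by their shares of UMIs in the DMSO library gave a ratio of 1.30 for the classical chains, 1.30 for Cd74 and 0.855 for Ciita.

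H2-DMb2 was the member whose level differed most between B cells and macrophages. Of H2-DMb1 and H2-DMb2 UMIs together, H2-DMb2 gave 76.9% (72.3 to 81.0) in B cells with DMSO and 73.6% (65.9 to 80.3) with MVC. In macrophages it gave 11.5% (7.65 to 16.4) of 226 and 14.5% (10.7 to 19.1) of 289 UMIs. Most of this came from the dendritic cell-like cells, at 19.6% and 25.3%. Among macrophage-like cells it was 0 of 20 UMIs with DMSO and 2 of 36 with MVC, and in the endothelial-marked sub-cluster 0 of 20 and 0 of 50.

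**Figure D3:**
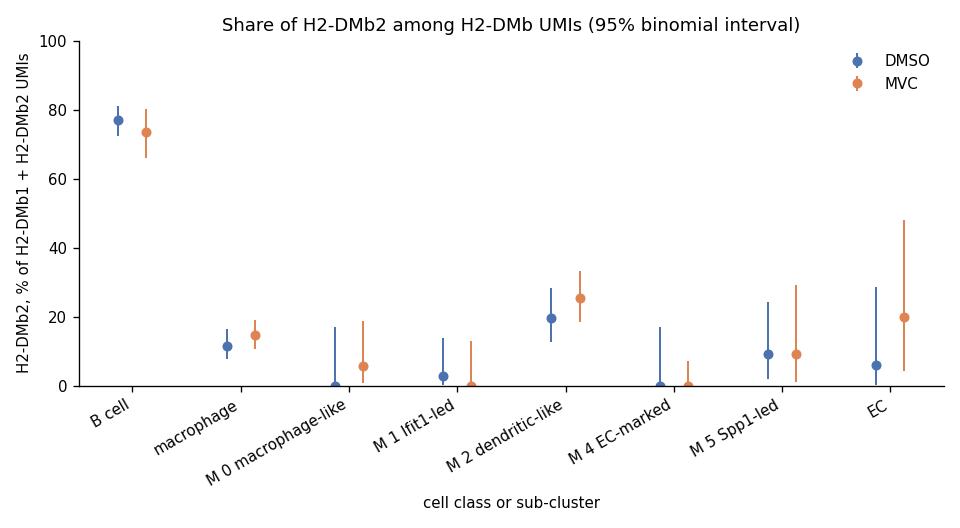
H2-DMb2 as a percent of H2-DMb1 plus H2-DMb2 UMIs by class or sub-cluster, with 95% binomial intervals and the libraries in 2 colours. B cells sit at 76.9% and 73.6%, and the macrophage class at 11.5% and 14.5%.

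The H2-DMb2 total of a library was lower where there were fewer B cells. There were 328 H2-DMb2 UMIs in kept DMSO cells and 167 in MVC cells. B cells held 88.1% and 68.3% of them. H2-DMb1, by contrast, was at 312 and 318 UMIs, with 64.1% of the DMSO UMIs in macrophages.

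The classical chains and Cd74 were graded together from cell to cell in macrophages. Over 141 DMSO and 199 MVC macrophages thinned to 2000 UMIs, Pearson correlations between pairs of these 4 genes ran from 0.815 to 0.896. In B cells they ran from 0.467 to 0.629 over 202 DMSO cells. The cells of a library share its free RNA, and the macrophage class mixes dendritic cell-like and macrophage-like cells, so these values are descriptions. H2-Aa, H2-Ab1 and Cd74 were all found in 90.6% of B cells with DMSO and 81.8% with MVC at that depth, and in 36.2% and 47.7% of macrophages.

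T/NK cells and neutrophils held class II UMIs in very few cells. The T/NK class, with 194 DMSO and 59 MVC cells, included a sub-cluster with mast cell markers. That sub-cluster had 15 and 14 cells with 2 and 3 classical UMIs, and 44.8% of its cells were called doublets. In T/NK cells 3 cells carried 96.2% of 266 classical UMIs with DMSO and 90.9% of 44 with MVC. The pooled ratio of 0.563 (0.399 to 0.776) became 1.41 when the 3 highest cells of each library were left out and 1.42 after thinning, so no direction can be read. Of the 4 members with enough UMIs, H2-Ab1 and Cd74 were lower by 1.5-fold, where 13.5% of all genes were. H2-Ab1 had enough UMIs only through the DMSO library, where it was high, so its place in the count is no separate result. Of 65 classical UMIs in DMSO neutrophils, 1 cell held 73.9%.

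**Figure D4:**
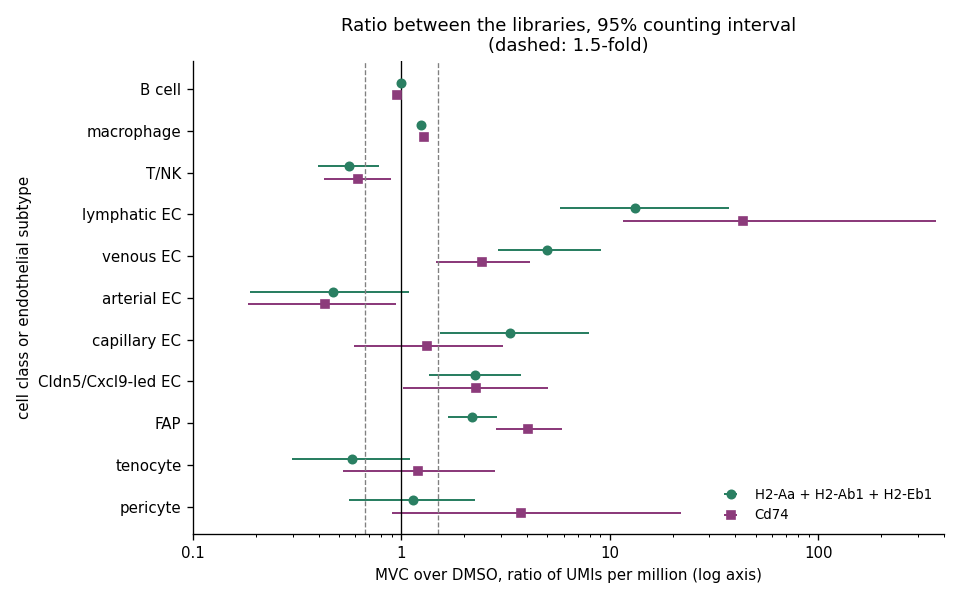
Ratio of MVC over DMSO (log axis) by cell class for the summed classical chains and for Cd74, with 95% counting intervals. FAPs and the endothelial classes lie above 1, except arterial ECs, and B cells lie near it.

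ECs outside the lymphatic class had low levels of class II that were higher with MVC. H2-Aa was at 2.36 CPM with DMSO and 7.10 with MVC (ratio 3.005, 1.83 to 5.08), H2-Ab1 at 2.46 and 5.79 (2.35, 1.41 to 4.01), and H2-Eb1 at 2.86 and 5.66 (1.98, 1.21 to 3.29). Cd74 had 7.29 and 11.7 CPM (1.61, 1.17 to 2.22). H2-DMa had 2.56 and 4.08 CPM with an interval of 0.915 to 2.79, and H2-DMb1 was equal, at 1.58 CPM in both. Ciita had 3 UMIs in each library, and H2-DMb2 had 1 and 3.

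All 5 members with enough UMIs in ECs were higher with MVC by at least 1.5-fold, where 8.67% of 11416 genes were, and their median log2 ratio was 0.99 against 0.05 for all genes. H2-Aa, H2-Ab1 and H2-DMa, with 24, 25 and 26 UMIs in DMSO ECs, had enough UMIs only through the MVC library, where each was higher. Their places in the count are thus no separate result. H2-Eb1 and Cd74 did not need the higher MVC level to be counted in ECs. The summed level of a panel of 13 immune cell genes was also higher in the same cells, at 21.3 CPM with DMSO and 33.5 with MVC (1.58, 1.31 to 1.90). The macrophage genes of the panel were higher, with C1qa at 14 and 31 UMIs and Lyz2 at 33 and 53, and the B cell genes lower, with Cd79a at 15 and 4. Of the panel 12 of 13 genes were found in MVC ECs and all 13 in DMSO ECs, with Ms4a1 at 0 in MVC. With every EC that held a panel UMI left out, the classical ratio was 2.61.

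The difference was unequal among endothelial subtypes. Venous ECs had 17 classical UMIs in 245 DMSO cells and 67 in 210 MVC cells, which is 8.60 and 43.0 CPM and a ratio of 4.995 (2.90 to 9.08). In them H2-Aa had 5 and 25 UMIs, H2-Ab1 had 8 and 26, H2-Eb1 had 4 and 16, and Cd74 had 25 and 48 (2.43, 1.47 to 4.12). H2-DMb1 was not higher with MVC, with 12 UMIs in DMSO venous cells and fewer in MVC ones. Cd74 was the only member with 50 UMIs there, and it met that limit only through the MVC library, where it was high. Its being past 1.5-fold is thus no separate result, and 8.22% of genes were higher by that much. At least 3 classical UMIs were found in 6 venous cells with MVC and 0 with DMSO, and none of the 6 held an immune panel UMI or was called a doublet. Only 10.5% of all MVC venous cells held a panel UMI, so the lack of one did not set these 6 apart. The panel in venous ECs was at 9.62 CPM with DMSO and 16.7 with MVC (1.73, 0.924 to 3.32), with 10 and 8 of its genes found and Ms4a1 at 0 in both.

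Capillary ECs had 3.69 CPM with DMSO and 12.3 with MVC (3.32, 1.54 to 7.96), and the ECs led by Cldn5 and Cxcl9 had 8.06 and 18.1 (2.24, 1.35 to 3.73). Arterial ECs had 11.6 and 5.43 CPM from 19 and 9 UMIs, a ratio of 0.469 (0.187 to 1.09), and 11 of the 19 DMSO UMIs were in 1 cell. The share of cells with a classical UMI was 6.12% and 16.7% in venous, 1.36% and 4.17% in capillary and 3.42% and 3.08% in arterial ECs. Venous ECs, at median depths of 8259 and 7210 UMIs, thus stood above the tenocyte share of 3.21% with MVC. With DMSO they were above tenocytes too, at 15 of 245 against 17 of 465 cells.

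Lymphatic ECs had the largest ratio among the classes with at least 50 cells in each library. Over 75 DMSO and 79 MVC cells, the classical chains had 6 and 64 UMIs, which is 9.32 and 123 CPM and a ratio of 13.2 (5.76 to 37.4). The ratio was 7.31 after thinning each cell to 2000 UMIs, and 51.9 without the 3 highest cells of each library, which left 1 DMSO UMI. H2-Aa had 1 and 29 UMIs, H2-Ab1 had 3 and 16, and H2-Eb1 had 2 and 19. Cd74 had 2 UMIs with DMSO and 70 with MVC, 3.11 and 135 CPM, for a ratio of 43.4 with an interval of 11.6 to 366. It was the only member with 50 UMIs in these cells, and it met that limit only through the MVC library, where it was high. Its being past 1.5-fold is thus no separate result, and 9.43% of 3913 genes were higher by that much. H2-DMa had 0 and 3 UMIs and Ciita 2 and 0, and H2-DMb1 and H2-DMb2 had none in either library.

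Most of the lymphatic classical UMIs with MVC, 52 of 64, lay in a minority of the cells. Cells with a classical UMI made up 5.33% (1.47 to 13.1) with DMSO and 24.1% (15.1 to 34.98) with MVC, and 2.67% and 14.3% after thinning to 2000 UMIs. At least 3 classical UMIs were found in 1 of 75 DMSO cells and 10 of 79 MVC cells. The 10 cells held 4 to 11 classical UMIs and 46 Cd74 UMIs, with Cd74 in all 10, H2-Aa in all 10, H2-Eb1 in 7 and H2-Ab1 in 5. Every 1 of the 10 had lymphatic and endothelial markers, none had an immune panel UMI and none was called a doublet. Only 10.1% of all MVC lymphatic cells held a panel UMI, so the lack of one did not set these 10 apart. The panel was at 15.5 CPM with DMSO and 17.3 with MVC in this class (1.12, 0.402 to 3.06). Of its 13 genes 8 were found with DMSO and 5 with MVC, with Ptprc, Cd79a, Cd79b, Laptm5 and Coro1a at 0 in both libraries. With cells holding a panel UMI left out, the classical ratio was 25.4 in lymphatic and 5.24 in venous ECs. The lymphatic value rested on very few DMSO UMIs. Of the 6 in the class, 3 were in a cell that held a panel UMI and was left out.

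**Figure D5:**
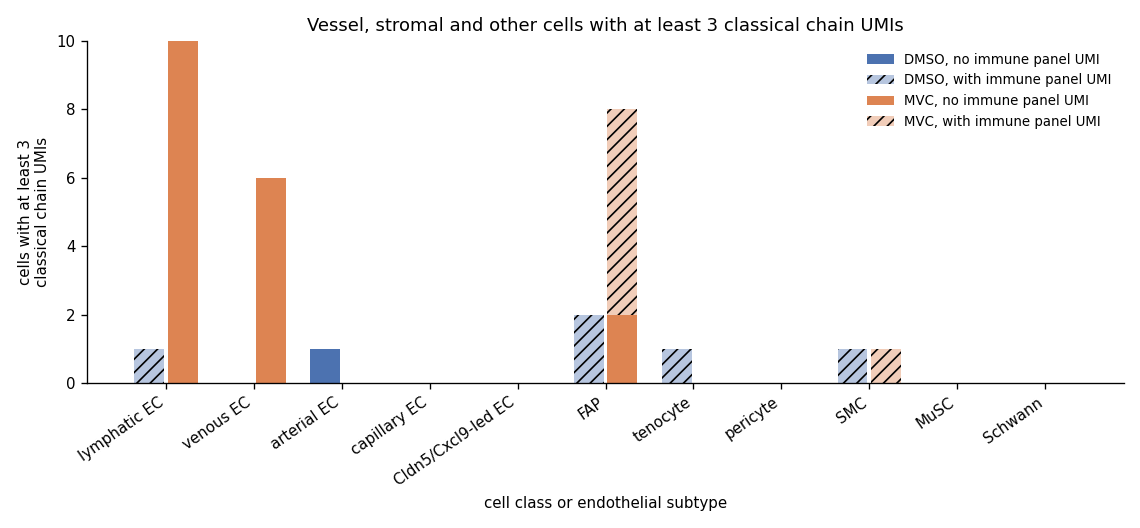
Number of cells with at least 3 classical chain UMIs in non-immune classes, by library, split by whether the cell also held a UMI of the 13-gene immune panel. The 10 lymphatic and 6 venous cells of the MVC library hold none, whereas 6 of 8 FAPs do.

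FAPs, the fibroblast-like progenitors of the muscle interstitium, also had more class II UMIs with MVC, and here the immune panel moved by as much. H2-Aa was at 2.04 CPM with DMSO and 4.32 with MVC (2.12, 1.32 to 3.50), H2-Ab1 at 1.41 and 3.88 (2.75, 1.59 to 4.99), and H2-Eb1 at 2.90 and 5.71 (1.97, 1.32 to 2.995). Cd74 was at 3.06 and 12.4 CPM (4.05, 2.84 to 5.89). H2-DMa had 27 and 39 UMIs (1.35, 0.805 to 2.29) and Ciita 11 and 21 (1.78, 0.822 to 4.09). Of 5 members with enough UMIs 4 were higher by 1.5-fold, where 12% of 12721 genes were, with a median log2 ratio of 1.08 against 0.14 for all genes. H2-Ab1, with 18 UMIs in DMSO FAPs and 53 in MVC ones, had enough only through the MVC library, where it was high. Its place in the count is thus no separate result.

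The panel in FAPs was at 9.09 CPM with DMSO and 19.5 with MVC (2.15, 1.72 to 2.70), against 2.19 (1.68 to 2.88) for the classical chains. For every 100 panel UMIs there were 69.8 classical UMIs with DMSO and 71.2 with MVC. Of the 13 panel genes 12 were found with DMSO, where Cd79b was at 0, and all 13 with MVC. Of 8 MVC FAPs with at least 3 classical UMIs, 6 held a panel UMI and 4 were called doublets. With called doublets removed the level was 4.19 and 8.93 CPM. The 4 FAP clusters differed: the largest had a classical ratio of 1.29 (0.874 to 1.91), the next 4.19 (2.33 to 8.18), and their Cd74 ratios were 4.13 and 4.64. The other 2 had classical ratios of 4.32 (1.92 to 10.97) and 0.772 (0.277 to 2.11). How far immune RNA made up the FAP values was not tested. Leaving out FAPs with a panel UMI gave a ratio of 2.29 for the classical chains and 2.30 for Cd74.

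In the other stromal classes the UMIs were few or lay in single cells. Smooth muscle cells had 24 classical UMIs with DMSO and 46 with MVC (2.13, 1.28 to 3.66), and 1 cell held 73.9% of the latter. Removing called doublets took the ratio to 0.416. In muscle fibres 37 of 38 MVC classical UMIs were in 1 cell, and 0 were found in 13 DMSO cells. Tenocytes had 28 and 17 UMIs (0.582, 0.299 to 1.10), MuSCs 3 and 10 (1.996, 0.514 to 11.3), and pericytes 21 and 17 (1.13, 0.562 to 2.26), and all 3 intervals included equal levels. In MuSCs H2-DMa had 11 UMIs with DMSO and 1 with MVC (0.0544, 0.00127 to 0.375).

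The other class II loci encode H2-DO, the inhibitor of H2-DM that is typical of B cells, and the chain H2-Eb2. In B cells 2 of the 3 measured were lower with MVC by 1.5-fold, where 8.42% of all genes were: H2-Oa had 89.8 CPM with DMSO and 48.2 with MVC (0.536, 0.347 to 0.807) and H2-Ob had 315 and 171 (0.542, 0.434 to 0.673). H2-Eb2 was at 59.3 and 73.0 CPM (1.23, 0.832 to 1.81). H2-Ob was at 397 and 123 CPM in the largest B cell sub-cluster, at 303 and 342 in the next, and at 21.9 and 198 in the Ighg2b and Jchain led one. In macrophages only H2-Ob had enough UMIs, 23 and 34 (1.29, 0.738 to 2.29), and 87.0% and 79.4% of them were in dendritic cell-like cells.

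The partners of CIITA, which are the RFX, CREB and NF-Y subunits, showed no 1.5-fold difference in any class counted: 0 of 4 in B cells, 0 of 5 in macrophages, and 0 of 7 in both ECs and FAPs. Of all genes 12.1% were higher and 8.42% lower by that much in B cells, and 10.4% and 6.16% in macrophages. In ECs 8.67% and in FAPs 12% of all genes were higher. With so few partners, counts of 0 are near these shares and say little about them. In B cells Nfyb was at 57.6 CPM with DMSO and 40.4 with MVC (0.701, 0.428 to 1.12) and Nfya at 55.1 and 38.9. In macrophages Nfyb had a ratio of 0.818 (0.563 to 1.19) and Nfyc 1.12 (0.829 to 1.51).

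Genes of class II peptide processing, which are endosomal proteases and their helpers, differed by class. In macrophages 3 of 8 were lower with MVC by 1.5-fold and none higher, where 6.16% and 10.4% of all genes were: cathepsin L (Ctsl) was at 498 CPM with DMSO and 221 with MVC (0.444, 0.397 to 0.497), Ctsd at 584 and 315 (0.539, 0.489 to 0.595), and the legumain gene Lgmn at 682 and 452 (0.663, 0.609 to 0.721). The Gpnmb and Spp1 led sub-cluster held 45.8% of the DMSO Ctsl UMIs of the class and 3.20% of the MVC ones. In B cells 3 of 7 were higher, where 12.1% of all genes were, among them the cystatin Cst3 (2.33, 1.87 to 2.90) and Ctsl (2.19, 1.26 to 3.84). Of their MVC UMIs 68.4% and 67.7% were in the sub-cluster of B cells with endothelial markers. Ctsl had enough UMIs in B cells only through the MVC library, where it was high, so its place in the count is no separate result.

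Costimulatory genes in macrophages were lower in 2 of 7 cases, where 6.16% of all genes were. Pdcd1lg2, which encodes PD-L2, had 87 UMIs with DMSO and 26 with MVC (0.261, 0.162 to 0.408). It met the 50-UMI limit only through the DMSO library, where it was high, so its place in the count is no separate result. Of the DMSO UMIs 96.6% were in dendritic cell-like cells, in which the gene was at 223 and 18.5 CPM. The Gpnmb and Spp1 led sub-cluster went the other way, with 0 and 14 UMIs, or 53.9% of those with MVC. Icosl was at 29.2 and 16.0 CPM (0.5496, 0.347 to 0.860). In B cells 2 of 6 were higher and 1 lower, where 12.1% and 8.42% of all genes were: Cd80 had 5 and 79 UMIs, with 72.2% of the latter in the Ighg2b and Jchain led sub-cluster, and Icosl was at 49.98 and 24.9 CPM (0.497, 0.267 to 0.876). Cd80 met the 50-UMI limit only through the MVC library and Icosl only through the DMSO library, where each was high. Their places in these counts are thus no separate result.

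The interferon-γ axis, which induces Ciita in many cells, was represented by its receptors, regulators and target genes. In B cells the receptor chain gene Ifngr2 was at 88.9 CPM with DMSO and 59.0 with MVC (0.664, 0.446 to 0.971). In macrophages the chemokine gene Cxcl10 was at 129 and 186 CPM (1.44, 1.22 to 1.70).

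In ECs 3 of 10 interferon-γ genes were higher by 1.5-fold, where 8.67% of all genes were, and these are named after their values were seen. Cxcl9 was at 66.6 CPM with DMSO and 190 with MVC (2.85, 2.60 to 3.12), Cxcl10 at 89.7 and 205 (2.28, 2.10 to 2.48), and Gbp2 at 100.1 and 198 (1.98, 1.83 to 2.15). In venous ECs Cxcl9 was at 84.0 and 265 CPM (3.15, 2.63 to 3.80), and Irf1 at 223 and 339 (1.52, 1.34 to 1.73). In lymphatic ECs Gbp2 (0.872, 0.614 to 1.23) and Irf1 (0.893, 0.695 to 1.15) had intervals that included equal levels. Cxcl10 had 1 and 63 lymphatic UMIs, found in 3.80% of MVC cells. In FAPs 2 of 10 were higher, where 12% of all genes were, with Cxcl9 at 4.15 and 30.9 CPM (7.45, 5.59 to 10.1) and Gbp2 at 67.1 and 102 (1.53, 1.40 to 1.66).

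CD74 is also a receptor for the cytokine MIF. Of the genes for MIF, its homologue and their co-receptors, 1 of 3 was higher in B cells (12.1% of all genes), Cd44 at 86.4 CPM with DMSO and 303 with MVC (3.51, 2.75 to 4.50), and 53.3% of the MVC UMIs were in the Ighg2b and Jchain led sub-cluster. Cxcr4 was at 139 and 109 CPM in B cells (0.783, 0.583 to 1.04) and at 74.5 and 50.4 in macrophages (0.677, 0.521 to 0.878). In macrophages 1 of 4 was higher (10.4% of all genes), Ddt at 21.6 and 33.5 CPM (1.55, 1.04 to 2.34).

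The 5 genes whose levels were most like the mean of the classical chains were Cd86 (Pearson r = 0.970), Cd83 (0.943), Nsf (0.937), Ctss (0.931) and Pkib (0.927), over 33 profiles of class and library on the log2(CPM + 10) scale. Within the family, Cd74 had 0.986, H2-DMb1 0.895, Ciita 0.875, H2-DMa 0.864 and H2-DMb2 0.863. Cd86, which encodes a costimulatory ligand, was at 677 and 1182 CPM in B cells and 828 and 865 in macrophages, against 0.788 and 0.921 in ECs. The profiles share 2 libraries and related cell classes, so the correlations only describe these cells.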

How the data were processed

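Single-cell counts were the deposited values: whole UMI counts per gene and barcode for 2 libraries, made by the authors, per the submitters' processing notes, with Cell Ranger 7.0.0 on mm10, and Seurat 5.0.1 was named too. Which annotation was used, and whether intronic reads were counted, is not given in the sources used here. The 8 genes, marker lists and pathway lists were chosen with earlier results of these data known.

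Barcodes with fewer than 500 genes or over 10% mitochondrial UMIs were removed, following the study. Counts were scaled to 10000 per cell and log-transformed, class II genes were left out, and 2000 variable genes, 30 principal components and 20 neighbours were used for Leiden clustering at resolution 1, which gave 25 clusters, named where at least 3 fixed markers were raised. Sub-clusters were made in the same way. Doublets were scored against simulated doublets in each library, and the top 0.8% per 1000 cells were called (236 DMSO, 238 MVC) and kept. No free RNA correction was made. 2 shallow clusters stayed unnamed.

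CPM carry exact Poisson intervals, shares exact Clopper-Pearson intervals and ratios exact conditional intervals, all at 95%. They cover counting error only, and a count of 0 allows up to 3 counts. Depth was 39150511 and 36063575 UMIs. Thinning to 2000 UMIs left out 447 DMSO and 981 MVC cells. A gene was counted past 1.5-fold with at least 50 UMIs in a class over both libraries, in classes with at least 50 cells in each. Every member was named, and from each list the 2 genes farthest from a ratio of 1 in macrophages and B cells. Further genes, such as H2-Eb2, Lgmn, and those of ECs and FAPs, were named after their values were seen. Likeness used genes with at least 200 UMIs and profiles with at least 20 cells. H2-Ea and Marchf1 were not analysed here. Of the interferon-γ list, 1 gene that met the naming rule in both classes is not reported here, and neither are the list's counts in them. Positions came from GENCODE on GRCm38 and promoters from RefSeq on GRCm38.p6. The scripts were tested on simulated data. Python 3.11.15, numpy 2.4.6, scipy 1.17.1, scikit-learn 1.9.0 and leidenalg 0.10.2 were used. Alternatives changed the cell filter, doublets, variable genes, library centring, averaging, scaling, thinning and the highest cells.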

Additional observations from a re-analysis of the deposited data

Results flagged for a closer look

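The ratio of the classical chains (MVC over DMSO) pointed in opposite directions in related classes. It was 4.995 in venous ECs and 0.469 in arterial ECs, and it was 1.25 in macrophages and 0.563 in T/NK cells. With 1 library per treatment the differences between these classes were not tested. The arterial interval included equal levels, and the T/NK value turned to 1.41 without the 3 highest cells of each library.

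Barcodes left out by the cell filter also held class II UMIs. In the MVC library 593 such barcodes held 138 classical UMIs, 253 CPM (213 to 299), and in the DMSO library 375 held 20, 49.7 CPM (30.4 to 76.8), a ratio of 5.09 (3.17 to 8.59). The immune panel in the same barcodes was at 390 CPM with MVC and 124 with DMSO.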

How the results depend on the processing

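No paired analysis was possible because each treatment had a single library. Ratios are given as log2 of MVC over DMSO, and the cause of a change was not tested. In B cells the classical chains were at -0.0800 with the stricter cell filter, -0.0803 with genes centred by library, 0.13 without called doublets, -0.12 as a mean over cells, 0.18 without the endothelial-marked sub-cluster and -0.40 without the Ighg2b and Jchain led one. In macrophages they were at 0.25 without doublets, 0.27 scaled by the median gene, 0.26 thinned, 0.45 without the 3 highest cells and 0.23 without the endothelial-marked sub-cluster. In T/NK cells the sign turned to 0.24 as a mean over cells, 0.51 thinned and 0.50 without the 3 highest cells, and Cd74 turned to 0.28 and 0.46 under the first 2 of these. Lymphatic ECs were at 5.70 without the 3 highest cells. In smooth muscle cells the sign turned to -0.83 with class II genes kept for clustering and -1.27 without doublets, and Cd74 to -2.83, -4.19, -1.44 without the 3 highest cells and -0.41 without cells holding an immune panel UMI. The alternatives on sub-clusters and on immune panel cells were chosen after seeing the data.

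Over the settings tried the ratio ran from 2.16 to 2.61 in ECs, 1.99 to 2.43 in FAPs, 4.68 to 6.10 in venous ECs, 7.31 (thinned) to 51.9 (1 DMSO UMI left without the 3 highest cells) in lymphatic ECs, 1.17 to 1.36 in macrophages and 0.755 to 1.13 in B cells. Levels of the classical chains moved as follows. B cells with DMSO were at 7901 CPM without doublets and 8587 as a mean over cells, and with MVC at 7219 with the stricter filter, 8642 without doublets, 7395 with class II genes kept and 7914 as a mean over cells. Macrophages with DMSO were at 5283 without doublets and 4244 as a mean over cells, and with MVC at 6345 with the stricter filter, 6295 without doublets and 5365 as a mean over cells. FAPs without doublets were at 4.19 with DMSO and 8.93 with MVC.

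The share of cells with a classical UMI depended on depth. Thinned, it was 61.0% and 70.4% in macrophages (DMSO, then MVC), 1.54% and 3.15% in ECs, 0.711% and 1.91% in FAPs, and 14.3% in MVC lymphatic ECs. With at least 3 UMIs it was 60.5% and 65.7% in macrophages, 0.0474% and 0.354% in ECs, 0.171% and 0.562% in FAPs, and 1.33% and 12.7% in lymphatic ECs.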
